A study of Mus musculus with 34 samples.

Results

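The CCAAT/enhancer-binding proteins (C/EBPs) are described here in the liver of juvenile C57BL/6 mice whose thyroid hormone supply was altered for a short time. The members are Cebpa, Cebpb, Cebpd, Cebpg, Cebpz and Ddit3, and they were found on the array as the non-control probes whose RefSeq identifier maps to one of these symbols. This gave 13 probes for 6 genes, out of 41174 probes that carry 33269 names once identifiers of the same gene are merged under its symbol. Cebpa and Cebpb each have 2 probes, Cebpg has 3, Cebpz has 4, and Cebpd and Ddit3 have 1 each. On GRCm38.p6, RefSeq places the Cebpb gene at chr2:167688915-167690432 and the Cebpa gene at chr7:35119293-35121928. Where a gene has several probes, probe 1 is the one with the highest mean Cy5 signal, and each probe is reported separately. The members were put together because of a measured value, the higher Cebpb in goitrogen-treated pups that received hormone than in those that did not, so that contrast is given for Cebpb as a description.

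Livers were taken on postnatal day (PND) 15 and compared in 4 groups of each sex. Control pups received saline i.p. and no goitrogen. Hyper pups received no goitrogen and were injected i.p. with 50 µg thyroxine (T4) and 5 µg triiodothyronine (T3) per 100 g. The dams of hypo pups drank 0.05% methimazole and 1% sodium perchlorate, inhibitors of thyroid hormone synthesis and of iodide uptake, for 3 days, and the pups received saline. Hypo+ pups had the same goitrogens and were injected with 20 µg T4 and 2 µg T3 per 100 g. Every injection was given 4 hours before tissue collection. There were 4 control, 5 hyper, 4 hypo and 4 hypo+ males, and 4 control, 5 hyper, 5 hypo and 3 hypo+ females, each hybridised to 1 array. The study kept as hypo+ those replaced pups whose serum T4 was near or just above the control level, so this group was selected on hormone. The animals are named by the numbers in their labels.

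C/EBPs are transcription factors with a basic region that contacts DNA and a leucine zipper through which they pair with each other and with related factors. In liver, C/EBP alpha maintains the mature hepatocyte programme of glucose, lipid and nitrogen metabolism, while C/EBP beta and C/EBP delta are known as rapidly inducible members that respond to hormones, cAMP and the acute phase reaction. C/EBP gamma lacks a strong activation domain and acts mainly as a partner, and the protein encoded by Ddit3 (CHOP) is a stress-induced member that alters the DNA binding of its partners. Cebpz carries the family name but encodes a CCAAT-box binding protein without the leucine zipper, known for its part in ribosome assembly in the nucleolus.

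The 250 bases upstream of the annotated start site are shown for Cebpb and Cebpa. In the fit over both sexes described below, both probes of Cebpb and 1 of the 2 probes of Cebpa were called between groups. Both sequences are from RefSeq on GRCm38.p6, which lists such a window for 4 of the 6 members. Each is printed 5′ to 3′ on the strand of the gene. Capitals mark the letters of the motifs searched on both strands, which were the core of the cAMP response element (TGACG), one arm of the C/EBP site (TTGCG), the CCAAT box, the TATA box (TATAAA) and the hexamer bound by the thyroid hormone receptor (AGGTCA). None of these motifs overlapped another in either window.
Cebpb, chr2:167688665-167688914, plus strand: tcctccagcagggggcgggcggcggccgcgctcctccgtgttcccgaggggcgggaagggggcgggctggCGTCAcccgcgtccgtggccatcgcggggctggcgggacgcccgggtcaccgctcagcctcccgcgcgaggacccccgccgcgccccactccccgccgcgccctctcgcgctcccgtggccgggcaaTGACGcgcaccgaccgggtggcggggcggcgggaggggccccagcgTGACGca
Cebpa, chr7:35119043-35119292, plus strand: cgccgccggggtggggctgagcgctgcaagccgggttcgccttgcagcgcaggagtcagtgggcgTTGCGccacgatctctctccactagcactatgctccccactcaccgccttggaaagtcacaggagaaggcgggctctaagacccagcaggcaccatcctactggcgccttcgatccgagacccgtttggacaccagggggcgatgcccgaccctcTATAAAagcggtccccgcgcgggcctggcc

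The Cebpb window held TGACG at 3 places, whose first bases lie at -180, -53 and -7 relative to the start site, the first of them on the opposite strand. This core is present in 17.8% of 32851 windows of the same length. The Cebpa window held TTGCG once, at -185, and TATAAA once, at -30, and 14.5% and 12.4% of the windows hold these motifs. AGGTCA, which 14.0% of the windows contain, was in neither, and this says only that these letters are not within 250 bases of the start. The windows of Cebpg and Ddit3 held CCAAT, at 2 places and at 1 place, as did 33.8% of all windows. A match is a description of letters and was not tested as a binding site.

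All 13 probes were well above background in the Cy5 channel on each of the 34 arrays and none was saturated. Values are log2 ratios of pup liver (Cy5) to a universal mouse reference RNA (Cy3), so a value of 1 is a level 2-fold that of the reference. Dyes were not swapped, which leaves any dye bias in the level of a probe but not in the difference between groups. Dio1, the hepatic deiodinase that serves as a check of thyroid status, was lower in hypo than in control pups by 1.62 on the log2 scale (log2 difference -1.62, 95% CI -1.99 to -1.25, adjusted p = 2.74e-06, limma over both sexes) and higher in hypo+ than in hypo pups by 1.77 (adjusted p = 2.02e-07). The lipogenic genes Me1 and Thrsp moved alike, at -0.44 (adjusted p = 0.00358) and -1.51 (adjusted p = 0.00256) in hypo pups and at 0.81 (adjusted p = 2.9e-07) and 1.38 (adjusted p = 0.00452) between hypo+ and hypo pups, while Klf9, at -0.43 (adjusted p = 0.26) and 0.41 (adjusted p = 0.202), did not pass. The mean log2 ratio of 5 hepatocyte markers was 4.35 to 5.85 on the arrays. The 11 pancreatic acinar markers stood apart on 4 arrays, with mean log2 ratios of 4.88 in control male 832, 4.46 in control male 522, 3.77 in control female 831 and 2.33 in hypo+ female 543. On the other arrays this mean was 0.455 to 0.849. None of the 11 markers passed the test in any comparison, although over both sexes 10 were lower in hyper than in control pups at an unadjusted p under 0.05, with a median difference of -1.44. The 11 were lower in hypo than in control pups as well, with a median of -1.55. Of the 4 arrays, 3 were controls, and the differences of Cebpb and Cebpa from controls over both sexes are also given without those 4 arrays. Without them no other member was called in any comparison over both sexes.

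Cebpb, the inducible member, had its lowest values in hypo livers, intermediate and scattered values in most controls, and higher values in both groups that received hormone. In males, the log2 ratios of probe 1 were -0.94, -0.60, -0.49 and -1.27 in hypo pups. They were 0.75, 0.92, 0.35 and 0.75 in hypo+ pups. No hypo+ male overlapped the hypo males, and the means were 0.69 ± 0.24 (SD, n = 4) and -0.83 ± 0.36 (SD, n = 4). In females, the hypo values were -0.78, -0.99, 0.08, -1.04 and -0.66. The hypo+ values were 0.82, 0.68 and 0.62. Again the groups did not overlap, although hypo female 721, at 0.08, lay above the other hypo females. Groups were separated in this direction for 2.20% of all probes in males and 2.36% in females.

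The difference between hypo+ and hypo for Cebpb probe 1 was 1.52 (SE 0.31, adjusted p = 0.0435) in males and 1.39 (SE 0.23, adjusted p = 0.00757) in females, which corresponds to 2.87-fold and 2.61-fold. Probe 2 gave 1.33 (adjusted p = 0.0816) in males and 1.27 (adjusted p = 0.00151) in females. Of the 13 probes, 1 was called higher in males and 2 in females, all of them Cebpb, beside 0.313% and 0.408% of all probes called higher. As this contrast was the one that brought the members together, these values describe Cebpb and support nothing further. The call in males was kept in 3 of the 17 fits that left out 1 array, and that in females in all 17.

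**Figure D1:**
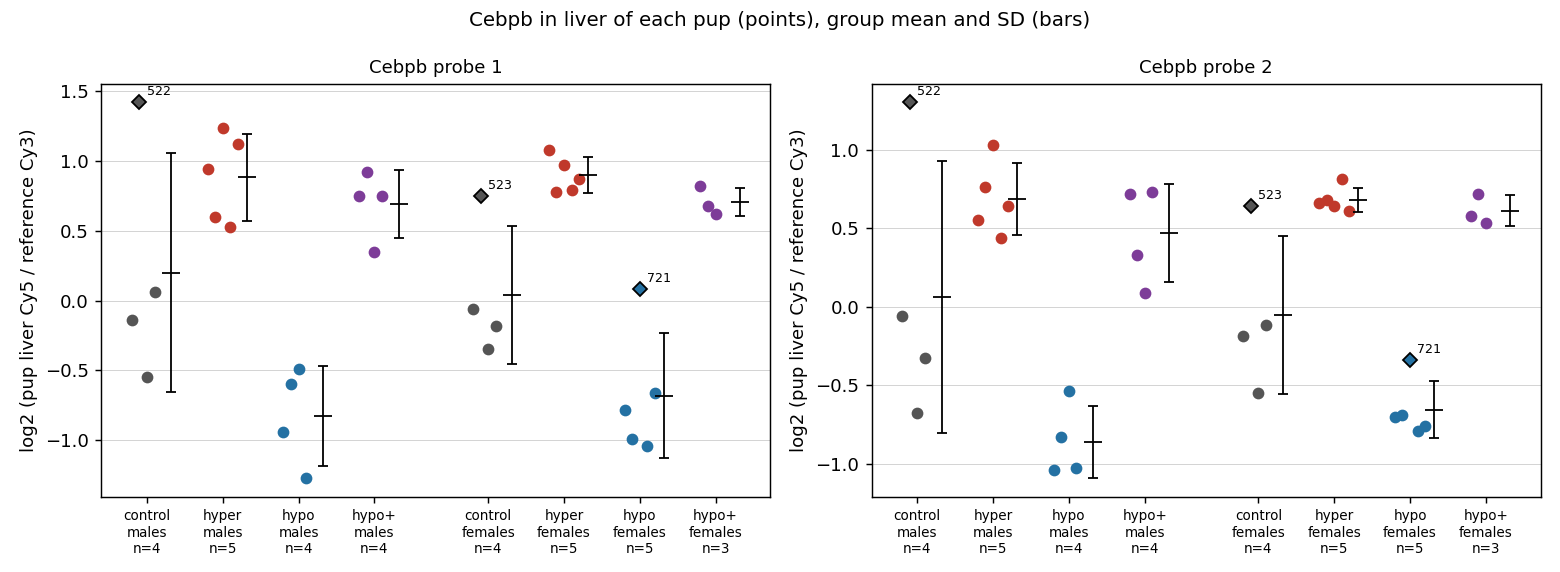
Log2 ratio of liver to reference (y axis) for both Cebpb probes in each pup, by treatment and sex (x axis). Points are pups, bars give the group mean and SD, and diamonds mark control male 522, control female 523 and hypo female 721. Hypo pups have the lowest group means but overlap the controls in both sexes. Hyper and hypo+ pups lie between 0.09 and 1.24 on the 2 probes, and control male 522 reaches 1.42 and 1.30.

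The difference in means between hyper and control pups uses none of the animals behind the choice of members, although all comparisons with controls share the same control pups. Its SE and adjusted p do draw on those animals, because all groups in a fit share 1 estimate of the spread. This comparison asks whether hormone given to pups with an intact thyroid moved these genes within 4 hours. In females, Cebpb probe 1 measured -0.06, 0.75, -0.35 and -0.18 in controls. It measured 1.08, 0.78, 0.97, 0.79 and 0.87 in hyper pups. All 5 hyper females were thus above all 4 controls, with a difference of 0.86 (SE 0.21, adjusted p = 0.198), while 1.30% of all probes were separated in this direction in that comparison. In males, the control values were -0.14, 1.42, -0.55 and 0.06. The hyper values were 0.94, 0.60, 1.24, 0.53 and 1.12. Here the groups overlapped because control male 522 exceeded every hyper male, and the difference was 0.68 (SE 0.30, adjusted p = 1).

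Within either sex no member passed the test for hyper against control, where 0.0753% of all probes were called in males and 0.158% in females. At an unadjusted p under 0.05, both Cebpb probes were higher in each sex, 1 Cebpa probe was lower in males and both Cebpa probes were lower in females. At that level, in either direction, were 1224 of all 41174 probes in males and 2535 in females. A fit over both sexes, in which pups sharing the first digits of their number were allowed to resemble each other, gave a mean difference of 0.77 for Cebpb probe 1 (95% CI 0.38 to 1.17, adjusted p = 0.0535), or 1.71-fold, and of 0.68 for probe 2 (95% CI 0.33 to 1.04, adjusted p = 0.0609). Neither passed, in a comparison that called 0.551% of all probes higher. The size of the difference moved most with control pups 522 and 523. Without them, a choice made after their values were seen, the difference of probe 1 was 1.1 (adjusted p = 0.000106) and that of probe 2 was 1.00 (adjusted p = 4.71e-06). Over 12 alternatives, this fit among them, probe 1 ranged from 0.64 to 1.1 and was called in 3. Probe 2 ranged from 0.50 to 1.00 and was called in 4.

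Control male 522 and control female 523 had the highest Cebpb of their groups on both probes. On probe 2 they measured 1.30 and 0.64, against -0.06 to -0.68 in the other control males and -0.12 to -0.55 in the other control females. The labels give these pups numbers with the same first digits, and say nothing of litters. Acinar markers were high in 522 (mean 4.46) and low in 523 (mean 0.626), and the part of acinar RNA in their Cebpb values was not tested. Without the 4 arrays high in acinar markers, which include 522 but not 523, the hyper difference of Cebpb probe 1 over both sexes was 0.82 (adjusted p = 0.0208) and that of probe 2 was 0.72 (adjusted p = 0.00443).

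Goitrogen alone went with lower Cebpb. Over both sexes, hypo pups were below controls by -0.88 on probe 1 (95% CI -1.28 to -0.47, adjusted p = 0.0199), or 1.84-fold, and by -0.76 on probe 2 (95% CI -1.13 to -0.40, adjusted p = 0.0258), so that both Cebpb probes fell, in a comparison with 0.495% of all probes called lower. Within a sex neither was called, with differences of -1.03 (SE 0.31, adjusted p = 0.521) in males and -0.72 (SE 0.21, adjusted p = 0.41) in females for probe 1, beside 0.0971% and 0.155% of all probes called. These comparisons share the hypo pups with the contrast behind the choice of members. The call depended on the same control pups, since without 522 and 523 the difference was -0.55 (adjusted p = 0.108) on probe 1 and -0.44 (adjusted p = 0.0725) on probe 2. It remained without the 4 arrays high in acinar markers, at -0.82 (adjusted p = 0.021) and -0.72 (adjusted p = 0.00456).

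Hypo+ pups were compared with controls to see where injection left the goitrogen-treated pups. Cebpb probe 1 differed by 0.58 over both sexes (95% CI 0.15 to 1.01, adjusted p = 0.255) and probe 2 by 0.54 (95% CI 0.15 to 0.93, adjusted p = 0.231). Neither passed, in a comparison that called 0.585% of all probes, and within a sex no member was called, beside 0.0267% of all probes in males and 0.0219% in females. These comparisons share the hypo+ pups with the contrast behind the choice of members, so for Cebpb they are a description. Without control pups 522 and 523, a choice made after their values were seen, the Cebpb differences were 0.91 (adjusted p = 0.00639) and 0.86 (adjusted p = 0.000285). Without the 4 arrays high in acinar markers they were 0.60 (adjusted p = 0.229) and 0.59 (adjusted p = 0.116). The group means of probe 1 stood at 0.69 in hypo+ males and 0.88 in hyper males, and at 0.71 in hypo+ females and 0.90 in hyper females. Doses differed between these injected groups, and they were not compared by a test.

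Up to 4 pups of a slide can be set against each other without any difference between slides. On the 8 slides that held a control and a hyper pup, Cebpb probe 1 was higher in the hyper pup on 7, with a median difference of 1.02 and a range of -0.48 to 1.14. The exception was slide 3, whose control was male 522. On the 7 slides with a control and a hypo pup, the hypo pup was lower on 6 (median -0.81, range -2.36 to 0.43), and the exception was slide 8, whose hypo pup was female 721. On the 5 slides with a control and a hypo+ pup, the hypo+ pup was higher on 3 and lower on 2 (range -0.50 to 1.17). On all 4 slides with both, the hypo+ pup exceeded the hypo pup, by 0.74 to 1.86. These groups did not overlap in either sex, so that direction was fixed beforehand. The contrast is also the one that brought the members together, and its values are a description. On probe 2 the hyper pup was higher than the control on 6 of the 8 slides (range -0.75 to 1.22).

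**Figure D2:**
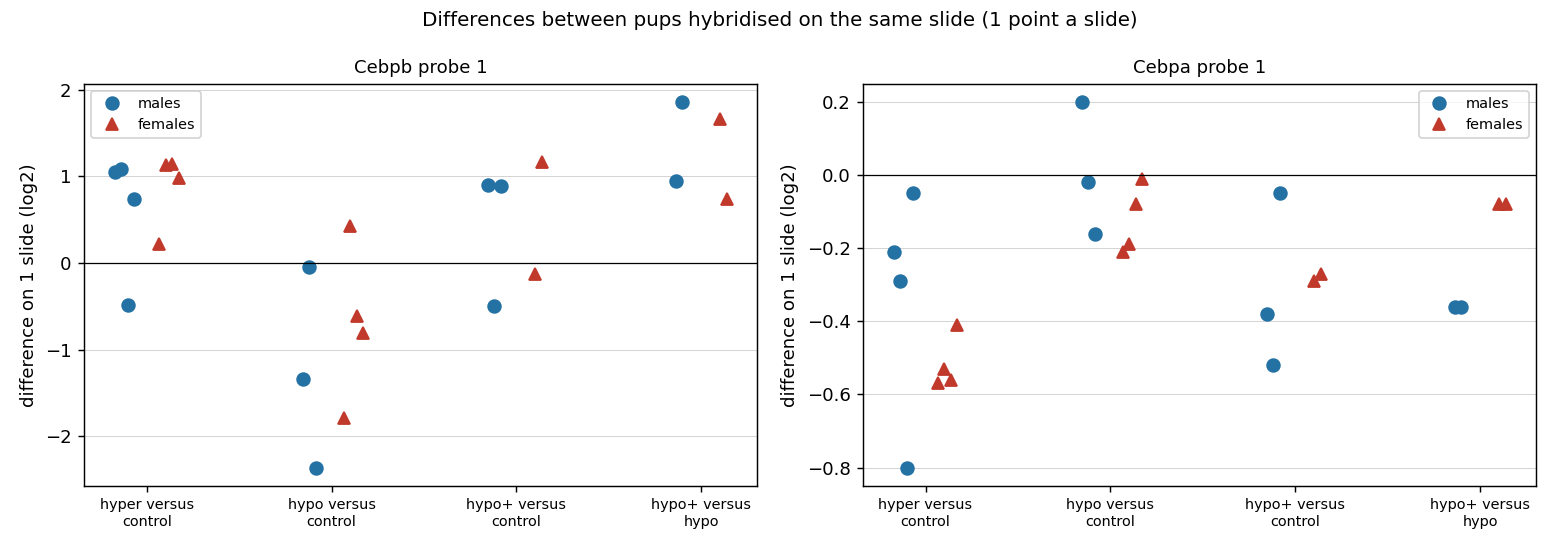
Differences in log2 ratio (y axis) between pups on the same slide for the 4 comparisons (x axis), with Cebpb probe 1 on the left and Cebpa probe 1 on the right. Each point is 1 slide, circles for males and triangles for females; Cebpb was higher in the hyper pup on 7 of 8 slides, and Cebpa was lower in the hyper pup on all 8.

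Cebpa, which maintains the differentiated hepatocyte, lay in the other direction from Cebpb in pups that received hormone, with smaller differences. In females, probe 1 measured 4.16, 4.04, 4.44 and 3.96 in controls. It measured 3.60, 3.91, 3.47, 3.55 and 3.87 in hyper pups. Every hyper female was below every control, as was also the case on probe 2, where controls ranged from 2.37 to 2.92 and hyper pups from 1.82 to 2.25. In males, probe 1 measured 3.82, 4.15, 4.36 and 3.67 in controls. It measured 3.35, 3.77, 3.77, 4.07 and 3.46 in hyper pups. The male groups overlapped.

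The difference of Cebpa between hyper and control was -0.47 (SE 0.13, adjusted p = 0.297) on probe 1 and -0.57 (SE 0.12, adjusted p = 0.0909) on probe 2 in females, a comparison in which 1.24% of all probes had groups separated in this direction. In males it was -0.32 (SE 0.15, adjusted p = 1) and -0.39 (SE 0.17, adjusted p = 1). Over both sexes, probe 2 was called, at -0.48 (95% CI -0.71 to -0.26, adjusted p = 0.0302) or 1.40-fold lower, beside 0.141% of all probes called lower. Probe 1 was not, at -0.39 (95% CI -0.61 to -0.18, adjusted p = 0.0934). It was called in 5 of 12 alternatives over both sexes, among them slide (-0.41, adjusted p = 0.000184) and scan date (-0.42, adjusted p = 6.76e-05) as a fixed block. In females it was called in 3 of 13 alternatives, among them the same blocks (-0.50, adjusted p = 0.00155 and 0.00165). On all 8 slides the hyper pup was below the control pup on both probes.

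Cebpa also followed the scan date. On probe 1 the highest pup of all 8 groups, and on probe 2 that of 6, was on 1 of the 8 arrays of scan date 6, which hold 1 pup of each group. They include control male 832 and control female 831, both high in acinar markers, at 4.36 and 4.44 on probe 1. Without the 4 arrays high in acinar markers, the hyper difference over both sexes was -0.22 (adjusted p = 0.679) on probe 1 and -0.27 (adjusted p = 0.5) on probe 2, a fit that loses both controls of scan date 6 and keeps its hyper pups. With those 4 arrays left out and scan date as a fixed block, it was -0.35 (adjusted p = 0.00863) and -0.35 (adjusted p = 0.0431), and without all 8 arrays of scan date 6 it was -0.36 (adjusted p = 0.0384) and -0.43 (adjusted p = 0.00475). Fewer cells that express a gene and less RNA in each cell cannot be told apart in bulk liver.

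Cebpa in goitrogen-treated pups without hormone overlapped the controls in both sexes. Hypo males measured 3.99, 4.34, 4.07 and 3.87 on probe 1, and hypo females 4.09, 3.95, 4.25, 3.83 and 4.07. The difference from controls over both sexes was -0.03 (95% CI -0.25 to 0.20) on probe 1 and -0.15 (95% CI -0.38 to 0.09) on probe 2, and without the 4 arrays high in acinar markers it was 0.15 and 0.06. Hypo+ males measured 3.64, 3.63, 3.98 and 3.77 on probe 1, and hypo+ females 4.17, 3.61 and 3.75. Their difference from controls was -0.28 (adjusted p = 0.361) on probe 1 and -0.47 (adjusted p = 0.0728) on probe 2, and that from hypo pups was -0.25 (adjusted p = 0.317) and -0.32 (adjusted p = 0.189), none of which passed. With scan date as a fixed block all 4 did, at -0.30 (adjusted p = 0.0136) and -0.47 (adjusted p = 0.00685) against controls and at -0.25 (adjusted p = 0.0259) and -0.33 (adjusted p = 0.0322) against hypo pups. Without the 4 arrays high in acinar markers the differences from controls were -0.18 (adjusted p = 0.685) and -0.27 (adjusted p = 0.477), and with scan date as a block in that fit they were -0.25 (adjusted p = 0.17) and -0.30 (adjusted p = 0.211). In females every hypo+ pup was below every control on probe 2, as for 3.45% of all probes, and the hypo+ pup was below the control on all 5 slides on both probes.

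**Figure D3:**
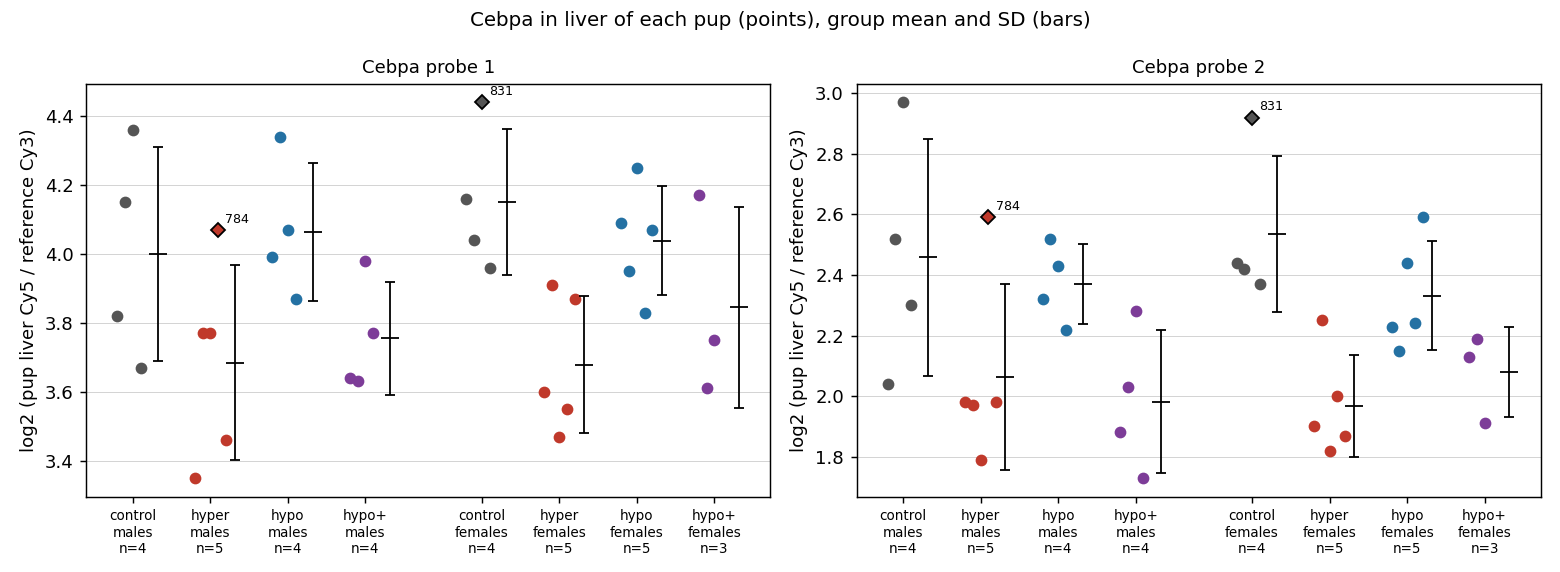
Log2 ratio of liver to reference (y axis) for both Cebpa probes in each pup, by treatment and sex (x axis), with group mean and SD as bars. Diamonds mark control female 831 and hyper male 784; among females each of the 5 hyper pups lies below each of the 4 controls on both probes.

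Cebpd, the other rapidly inducible member, was below the reference on every array and did not separate the groups. Control males measured -2.20, -0.85, -2.47 and -1.97. Hypo males measured -2.46, -2.49, -2.19 and -2.79. The high control was again male 522. Control females ranged from -2.34 to -1.77, with 523 at the top, and hypo females from -2.83 to -1.80, with 721 at the top. Hyper pups ranged from -2.62 to -1.74 over both sexes and hypo+ pups from -2.63 to -1.72.

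No comparison called Cebpd. The hyper difference over both sexes was -0.19 (95% CI -0.54 to 0.15, adjusted p = 1) and the hypo difference was -0.37 (95% CI -0.73 to -0.02, adjusted p = 0.582). Hypo+ pups differed from hypo pups by 0.20 (95% CI -0.17 to 0.56, adjusted p = 0.732), where Cebpb differed by 1.46 (95% CI 1.04 to 1.88). Among pups of the same group, however, Cebpd and Cebpb varied together. The deviations of Cebpb probe 1 and Cebpd from their group means had a Pearson r of 0.815 and a Spearman rho of 0.73 over the 34 arrays, and r was 0.667 without pups 522 and 523. With probe 2 of Cebpb, r was 0.668 and fell to 0.308 without them. Points share their arrays, and no test was made.

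**Figure D4:**
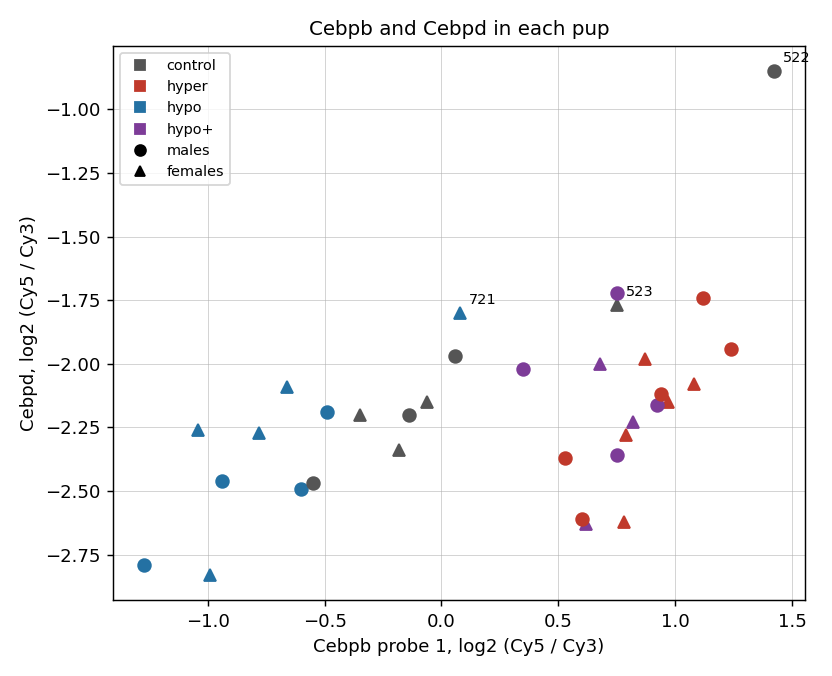
Cebpd (y axis) against Cebpb probe 1 (x axis), both as log2 ratios of liver to reference, with 1 point for each of the 34 pups, colours for treatment and shapes for sex. Hypo pups lie at the left, from -1.27 to 0.08, and control male 522, at 1.42 and -0.85, is highest on both axes.

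Cebpg, Cebpz and Ddit3 did not pass the test in any comparison. Over the 34 arrays, Cebpg probe 1 ranged from -0.07 to 0.61, probe 2 from 0.12 to 0.65 and probe 3 from -0.76 to 0.21. The 4 Cebpz probes lay between -0.77 and 0.00. Ddit3 ranged from -1.76 to -1.28, and its 4 control males lay within -1.54 to -1.5.

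For hyper against control over both sexes, Ddit3 differed by 0.01 (95% CI -0.11 to 0.13). The 3 Cebpg probes differed by between 0.00 and 0.02 in size, with bounds of -0.16 to 0.17 at the widest. The 4 Cebpz probes differed by -0.06 to 0.06, with bounds of -0.19 to 0.17 at the widest. For hypo+ against hypo, where Cebpb differed by more than 1 on the log2 scale, Ddit3 differed by -0.09 (95% CI -0.22 to 0.03). In hypo pups, Cebpg probes 1 and 3 differed from controls by -0.18 (95% CI -0.34 to -0.02, adjusted p = 0.476) and -0.20 (95% CI -0.37 to -0.03, adjusted p = 0.434).

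The largest value among these probes was that of Cebpg probe 3, at 0.22 over both sexes between hypo+ and hypo pups (95% CI 0.05 to 0.39, adjusted p = 0.21). In males its hypo values were -0.76, -0.33, -0.04 and -0.07. Its hypo+ values were 0.11, 0.05, 0.06 and -0.02. The male groups did not overlap, as for 2.20% of all probes in this direction, but the adjusted p was 0.372. Over both sexes it was called in the fit without the arrays high in acinar markers and with scan date as a fixed block (0.34, adjusted p = 0.0495), and the other Cebpg probes, at 0.05 and 0.03 over both sexes, did not share this separation.

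**Figure D5:**
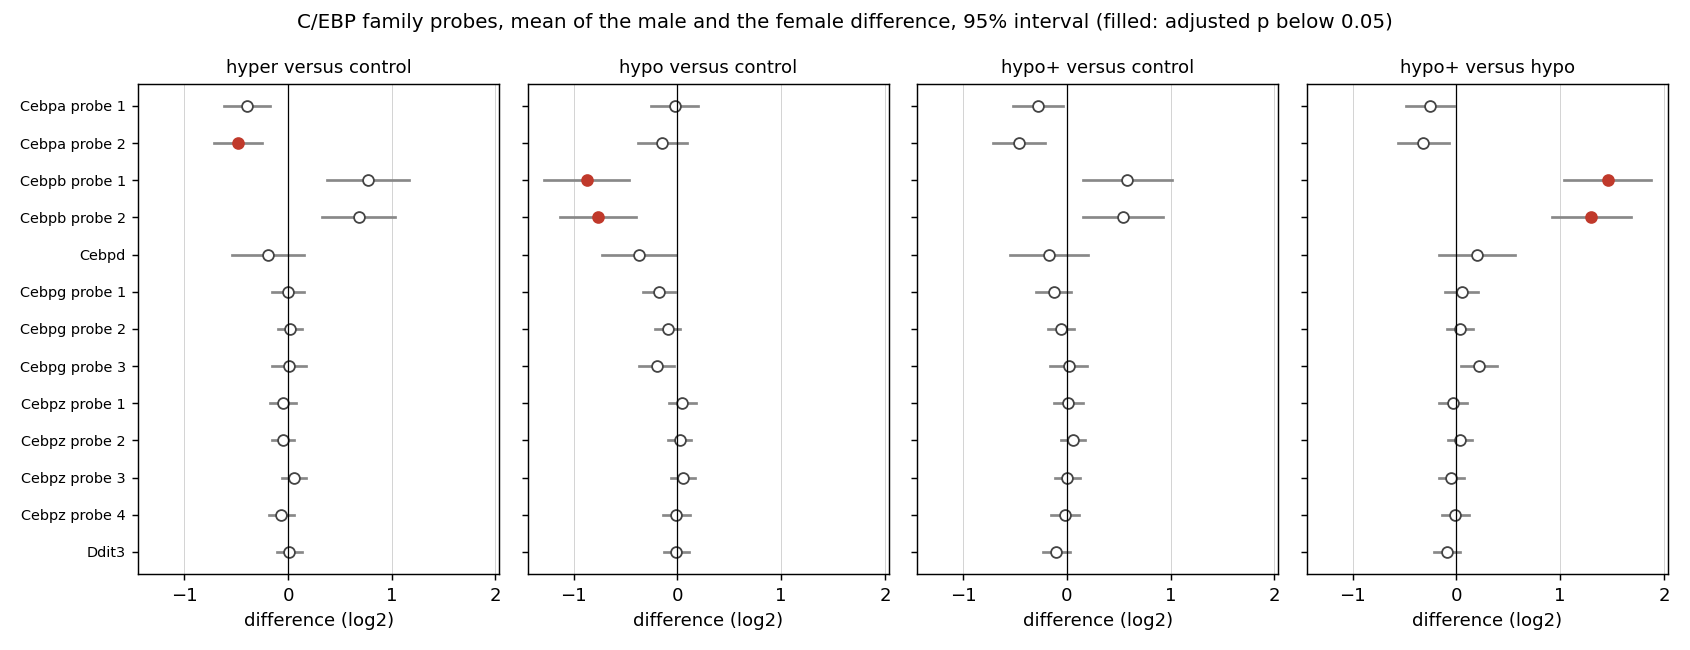
Difference in log2 ratio over both sexes (x axis) for the 13 probes (y axis) in the 4 comparisons, with 95% intervals as bars and filled points where the adjusted p is below 0.05. Both Cebpb probes are called lower in hypo than in control pups and higher in hypo+ than in hypo pups, Cebpa probe 2 is called lower in hyper pups, and the points of Cebpz lie between -0.06 and 0.06.

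Males and females were compared directly. In no treatment comparison was the difference between the sexes called for a member (adjusted p = 1 for all 13 probes, limma over 8 groups), and it was called for 0% of all probes, with 518 probes at an unadjusted p under 0.05 for hyper against control. For Cebpb probe 1 the female minus male difference in the hyper response was 0.17 (95% CI -0.61 to 0.96), an interval that leaves room for sizeable sex differences. The level of Cebpb itself differed between females and males by 0.00 (95% CI -0.28 to 0.29) and that of Cebpa probe 1 by 0.05 (95% CI -0.10 to 0.21).

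Other genes of C/EBP biology were counted on fixed lists. Among 23 factors with a basic leucine zipper on the array, none was called in either sex. Over both sexes, 2 were called higher in hypo+ than in hypo pups, beside 1.47% of all probes. They were Dbp, at 0.51 (SE 0.12, adjusted p = 0.0113), and Hlf, at 0.50 (SE 0.11, adjusted p = 0.00878), which encode PAR-domain factors known from circadian regulation in liver. The list's median difference was 0.04, against -0.01 for all probes. Against controls, hypo+ pups differed by 0.45 for Dbp (adjusted p = 0.0831) and by 0.34 for Hlf (adjusted p = 0.186). Dbp, Hlf and Cyp7a1 are named because of their calls over both sexes, after their values were seen. With slide as a fixed block Dbp (0.43, adjusted p = 0.161) and Hlf (0.37, adjusted p = 0.144) were not called, and over all 12 alternatives Dbp kept its call in 10 and Hlf in 7.

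Among 17 genes known as hepatic targets of C/EBPs, 1 was called over both sexes. Cyp7a1, the rate-limiting enzyme of bile acid synthesis, was higher in hypo+ than in hypo pups by 0.87 (SE 0.23, adjusted p = 0.029), and its hyper difference was 0.70 (SE 0.21, adjusted p = 0.186). Its call held in 6 of 12 alternatives and in 25 of 34 fits without 1 array. The median of the list was 0.08 between hypo+ and hypo pups and -0.06 between hyper and control pups. None of 22 acute phase genes, 22 genes of the integrated stress and unfolded protein responses, which Ddit3 belongs to, or 16 nucleolar ribosome assembly genes, the setting of Cebpz, was called in any comparison within a sex or over both sexes. For hyper against control over both sexes, 2 acute phase genes were higher and 1 lower at an unadjusted p under 0.05, 1 stress gene was higher and 3 were lower, and 1 assembly gene was higher. The medians of these lists were -0.034, -0.04 and 0.012, against -0.003 for all probes. No share of all probes at that level is given for this comparison, so the counts are a description. For hypo+ against control, 5 acute phase genes were lower at that level and none was higher (Saa1, Saa2, Saa3, Lcn2 and Steap4, at -0.59 to -0.32), beside 4168 of all 41174 probes in either direction, and these 5 are named after their values were seen. The mean of the acute phase list was 3.29, 3.17 and 3.28 in controls 522, 832 and 831, the controls high in acinar markers. In the other controls it was 2.65 to 2.94. The 5 genes were not tested without those arrays.

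Markers of other cells did not pass the test in any comparison either. In hypo+ against hypo pups, the contrast with the largest Cebpb difference, the median over 8 neutrophil markers, none of them higher, was -0.43. It was 0.09 over 6 macrophage markers, 0.11 over 6 endothelial and stellate markers and -0.19 over 6 adipocyte markers. Over 11 acinar markers, all of them higher, it was 0.36. The medians of 5 hepatocyte, 7 erythroid and 4 cholangiocyte markers were 0.05, -0.03 and 0.05. Array means of the neutrophil list ranged from 1.51 to 3.13 and those of the macrophage list from 3.42 to 4.4. Their part in the Cebpb difference was not tested.

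The genes whose values ran most like Cebpb probe 1 were ranked by Pearson r over the 34 arrays, after removal of each probe's sex means, among 29701 probes, and those with a RefSeq symbol are named. The other Cebpb probe had an r of 0.964. Next came N4bp2l1 (r = 0.904), Ulk1, the kinase that starts autophagy (0.902), Bmf, a pro-apoptotic BH3-only protein (0.88), Gch1, the first enzyme of tetrahydrobiopterin synthesis (0.879), and Ifrd1 (0.873). The most opposite of the named probes were both probes of Ppp1r3c, a glycogen-targeting subunit of protein phosphatase 1 (-0.884 and -0.845), and Acot3, a peroxisomal acyl-CoA thioesterase (-0.832). These correlations include the treatment differences and have no p-value. Apart from the other Cebpb probe, each probe named here was called between hypo+ and hypo pups in both sexes (limma, adjusted p of 7.48e-05 to 0.0106). Of all probes, 0.313% in males and 0.408% in females were called higher there. That contrast brought the members together, so these calls describe the ranking and support nothing further.

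For Cebpa probe 1, its own other probe had an r of 0.803 and the nearest genes were Tdo2, a tryptophan-degrading enzyme of hepatocytes (0.802), Hsd3b6 (0.778), Uox, urate oxidase (0.768), Glyctk (0.762) and Pard3 (0.753). The most opposite of the named probes were Intu (-0.766), Tapt1 (-0.736) and Tiparp (-0.708). Only sex means were removed, so differences between scan dates, which Cebpa followed, remain in these correlations. None of these genes nearest or most opposite to Cebpa was called in any comparison within a sex. Among members, Cebpb probe 1 had an r of -0.483 with Cebpa probe 1. Deviations from group means gave -0.0104 for this pair, and -0.0625 to -0.303 for the other pairs of a Cebpa and a Cebpb probe, where r after removal of sex means was -0.5 to -0.546.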

How the data were processed

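Liver RNA of 34 pups (Cy5) was hybridised against a universal mouse reference (Cy3) on Agilent whole genome arrays, and the authors deposited Feature Extraction 10.1.1.1 files with spot intensities and log10 ratios, and a table of normalized log2 values. The deposited intensity columns used were median signals. They were loess-normalized within arrays without background subtraction (limma 3.58.1, R 4.3.3), control and outlier spots having weight 0, and spots of a probe were averaged. The deposited log10 ratios (turned to log2) and the authors' log2 values served as alternatives; the latter correlated with the loess values at 0.992 to 0.996.

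Groups were compared within each sex by limma with Benjamini-Hochberg adjustment over all 41174 probes (called: adjusted p below 0.05), and over both sexes with the first digits of the animal number as a random block (correlation 0.0714). Intervals are at 95%. The number of arrays limits the precision. Each pup is 1 replicate; arrays of pups from the same dam may resemble each other. Of 33541 systematic names, 16806 matched a RefSeq gene (GRCm38.p6). By rule, named genes were the members, thyroid check genes, list genes called in either sex (none beyond the check genes), and, among probes with a RefSeq symbol, the 5 genes most and 3 probes least like Cebpb or Cebpa in pattern. The members and lists were chosen with earlier results of these data known. Arrays lay on 11 slides with 6 scan dates, and most slides held several groups of a sex, so slide and scan date were tried as blocks. Other alternatives were background correction, centring, Cy5 alone, a filter on dim probes, gene means and leaving out each array. The script was checked on simulated data. Cebpe was not analysed here.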

Additional observations from a re-analysis of the deposited data

Results flagged for a closer look

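Within groups of 4 or 5 pups, the gap between the most extreme pup and its nearest neighbour was set against the range of the group for each of the 13 probes. Of 91 such sets, 5 exceeded Dixon's limit, and chance gives about 1 in 20. Control female 831 had 2.92 on Cebpa probe 2, where the next control female had 2.44, and hyper male 784 had 2.59, where the next hyper male had 1.98. Hypo female 721 was marked on 3 probes, with -0.34 on Cebpb probe 2 (next -0.69), 0.13 on Cebpg probe 2 (next 0.34) and -0.65 on Cebpz probe 1 (next -0.36). These 3 pups were all on arrays of scan date 6. Control male 522 was not beyond the limit on any probe by this test.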

How the results depend on the processing

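The Cebpb difference between hypo+ and hypo pups was positive under each alternative run, and its call varied. This contrast brought the members together, so its sign and calls describe Cebpb and support nothing further. In males, probe 1 gave 1.48 (adjusted p = 0.108) with normexp background correction, 1.39 (1) with median centring, 1.47 (0.0597) in the authors' values, 1.59 (0.0898) in the scanner log ratios, 1.42 (0.0529) with probes averaged, 1.64 (0.0904) with slide and 1.68 (0.0576) with scan date as a fixed block, and 1.37 to 1.63 when each array was left out. In females it gave 1.28 (0.292) with median centring, 1.46 (0.0689) from Cy5 alone, 1.28 (0.156) with slide as a fixed block, 1.39 (0.055) with only those groups in the fit, and 1.30 to 1.57 without each array. For hyper against control, leaving out each array gave 0.43 to 1.09 in males and 0.73 to 1.1 in females (called without control 523, 0.0499), and for hypo against control in females -0.91 to -0.48 (called without hypo 721, 0.0465). Over both sexes, the hyper difference of Cebpb probe 1 ranged from 0.64 to 1.1 over 12 alternatives and was called in only 3. Those 3 were 0.77 (0.0453) without the random block, 0.82 (0.0208) without the arrays high in acinar markers and 1.1 without controls 522 and 523. Leaving out each array gave 0.65 to 0.97, called without hyper male 784, control male 522, control female 523 or hypo female 721. The hypo difference was -0.83 (0.0611) with normexp, -0.97 (0.743) with median centring, -0.55 without 522 and 523, and -1 to -0.68 without each array, the call being lost without hypo male 891 (-0.80) or control female 523 (-0.77). The hypo+ difference from control was called in 1 of 12 alternatives, at 0.91 without 522 and 523. Leaving out each array gave 0.46 to 0.78, called without 522 (0.0421).

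In females, Cebpa probe 1, hyper against control, ranged from -0.56 to -0.27 over 13 alternatives and was called in only 3. Those 3 were -0.50 (0.00155) with slide and -0.50 (0.00165) with scan date as a fixed block, and -0.48 (0.041) with slide as a random block. Leaving out each array gave -0.53 to -0.37. The hypo difference of probe 1 in females was 0.10 with normexp. Over both sexes, its hyper difference ranged from -0.50 to -0.22 over 12 alternatives and was called in only 5. Of those 5, Cy5 alone gave -0.50 (0.00556), slide as a fixed block -0.41 (0.000184) and scan date as a fixed block -0.42 (6.76e-05). The others were -0.36 (0.0384) without the arrays of scan date 6, and -0.35 (0.00863) without the arrays high in acinar markers and with scan date as a fixed block. Leaving out each array gave -0.45 to -0.34, called without control male 881 or hyper male 784. Hypo+ against hypo ranged from -0.46 to -0.22 over 12 alternatives and was called in only 3. Those 3 were -0.46 (0.00949) from Cy5 alone, -0.25 (0.0259) with scan date as a fixed block, and -0.27 (0.0282) with the arrays high in acinar markers also left out. Leaving out each array gave -0.33 to -0.20. The hypo+ difference of probe 1 from control was called in 1 of 12 alternatives, at -0.30 (0.0136) with scan date as a fixed block. For probe 2, hypo+ was called in 4 of 12 alternatives against control and in 4 of 12 against hypo. Among them were Cy5 alone (-0.50 and -0.44) and slide as a fixed block (-0.52 and -0.37). The call of Cebpa probe 2 was lost with normexp (-0.46), median centring (-0.41), without 522 and 523 (-0.49, adjusted p = 0.0868) and without the arrays high in acinar markers (-0.27), and was kept in 25 of 34 fits without 1 array. The causes were not tested. Fits over both sexes with a fixed block leave out the random block. The alternatives over both sexes, other than the fit without the random block, were chosen after seeing the data, among them those without pups 522 and 523 or the arrays high in acinar markers. No paired analysis was possible because no animal number is shared between groups, so that numbers pair no pups, while pups on a slide were compared within slides and with slide as a block.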

Other observations

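Control pups 522 and 523, which set the spread of Cebpb among controls, were compared with the other controls of their sex over the 22236 probes well above background on all arrays. They were picked for their high Cebpb, so the Cebpb probes enter the count by that choice, and no other pair of controls was counted. Both pups exceeded every other control of their sex by at least 0.5 on the log2 scale on 17 probes, a limit chosen after the Cebpb values were seen. Among them were both Cebpb probes (gaps of 1.36 in 522 on each, and of 0.81 and 0.77 in 523) and probes of Lpin1, a phosphatidate phosphatase (2.66 and 2.59 in 522, 0.53 and 0.56 in 523), Chac1 (2.04 and 0.92), which degrades glutathione, Rgs16 (2.18 and 0.64), Klf9 (1.28 and 0.51), Dusp1, a MAP kinase phosphatase (0.87 and 0.89), Mfsd2a (0.87 and 0.80), Zfp36, an mRNA decay factor (0.95 and 0.59), Ip6k2 (1.00 and 0.83), Ccng2 (0.96 and 0.54) and Trib3 (0.53 and 0.54). The mean log2 ratio of the 4 thyroid check genes, which include Klf9, was 2.22 in 522 and 2.32 in 523, and 1.91 to 2.25 in the other controls.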
